A study of Rattus norvegicus with 31 samples.

Results

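The genes described here are a set of 37 cell cycle and DNA replication genes, listed by name and chosen with earlier results of these data known. Of the 37 genes, 36 have a row in the deposited count table of 20207 gene symbols, and Ccnb2 was not analysed here. RNA was measured in the kidney cortex and colon of rats in 3 groups: normal controls (NC), a model of high salt intake (HS), and the same model treated with calcitriol, the hormone made from vitamin D (CAL). There were 5 NC, 4 HS and 6 CAL cortex libraries, against 5, 5 and 6 from the colon in the same order. Salt intake, dose, duration, strain, sex and age were not used here, and the labels do not say whether a cortex and a colon library came from the same rat or whether animals were pooled.

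Dividing cells copy their DNA once and then separate the copies. Before replication, the Mcm2 to Mcm7 proteins are loaded on DNA as the ring of the replicative helicase. The sliding clamp Pcna holds the polymerases on DNA, and ribonucleotide reductase (Rrm1, Rrm2), thymidylate synthase (Tyms) and thymidine kinase (Tk1) supply the nucleotides. Cyclins and Cdk1 drive entry into mitosis, in which condensins (Smc2, Smc4), topoisomerase Top2a and the spindle proteins fold and move the chromosomes. Most of these genes are switched on only in cycling cells. In the colon such cells lie in the lower crypt and in germinal centres of lymphoid follicles, whereas most tubule cells of the adult kidney are at rest.

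The values are read counts per gene, shown as CPM, the count scaled to a fixed library size, after trimmed-mean (TMM) scaling over the genes tested in a tissue. A cortex library held 289529 to 2265164 counts in total, and a colon library 267976 to 918820. The members together held 189 to 935 reads of a cortex library (0.0413% to 0.0653%) and 262 to 946 reads of a colon library (0.0578% to 0.179%). A count of 0 allows 1.36 to 10.5 CPM in a cortex library and 3.40 to 11.6 CPM in a colon library, taking 3 counts as the limit and covering counting error only. The 6 proximal tubule markers summed to 5931 to 9540 CPM in the cortex libraries and to at most 40.1 CPM in the colon libraries, and 6 surface colonocyte markers to 8219 to 20477 CPM in the colon and at most 43.9 CPM in the cortex. Colon HS replicate 3 stood apart: it had the highest member share of all 31 libraries, and its 8 T cell markers summed to 1109 CPM against 65.1 to 484 CPM in the other colon libraries. The labels name no sequencing batch, and p-values measure only the spread between these libraries.

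A few promoters are shown because they hold known cell cycle motifs: those of 3 helicase genes, which hold the E2F motif, and those of Cdc20, Smc4 and Cdc25b, in which it was not found. RefSeq (build GRCr8) gave the window from 250 bases before to 50 bases after the start for 29 of the 36 genes, and those of Mcm4, Cdc6, Rrm2, Ccnd1, Ccna2, Aurkb and Tpx2 are not shown. A set of 3 motifs was searched on both strands: the E2F motif, as TTTCCCGC, TTTCGCGC, TTTGCCGC or TTTGGCGC, the CCAAT box, as CCAAT, and the cell cycle homology region (CHR), as TTTGAA or TTCGAA. Capitals mark every match to any of them, and matches of the E2F motif and the CCAAT box can share bases, as in Mcm7. The windows are those of Mcm3 (chr9:30733697-30733996, minus strand), Mcm6 (chr13:42404303-42404602, minus), Mcm7 (chr12:22163129-22163428, minus), Cdc20 (chr5:137255750-137256049, minus), Smc4 (chr2:155550012-155550311, plus) and Cdc25b (chr3:138859923-138860222, plus).
Mcm3: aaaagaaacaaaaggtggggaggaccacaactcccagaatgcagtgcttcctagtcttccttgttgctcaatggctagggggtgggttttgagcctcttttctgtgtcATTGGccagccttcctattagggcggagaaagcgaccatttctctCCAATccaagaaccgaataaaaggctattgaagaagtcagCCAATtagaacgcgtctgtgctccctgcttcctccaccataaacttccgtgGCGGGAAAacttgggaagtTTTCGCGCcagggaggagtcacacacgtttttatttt
Mcm6: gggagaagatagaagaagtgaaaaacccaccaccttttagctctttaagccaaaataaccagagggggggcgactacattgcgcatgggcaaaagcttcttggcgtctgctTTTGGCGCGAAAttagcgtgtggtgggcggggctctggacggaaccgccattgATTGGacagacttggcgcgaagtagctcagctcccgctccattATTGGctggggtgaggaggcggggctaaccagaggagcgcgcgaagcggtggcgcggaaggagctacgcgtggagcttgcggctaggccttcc
Mcm7: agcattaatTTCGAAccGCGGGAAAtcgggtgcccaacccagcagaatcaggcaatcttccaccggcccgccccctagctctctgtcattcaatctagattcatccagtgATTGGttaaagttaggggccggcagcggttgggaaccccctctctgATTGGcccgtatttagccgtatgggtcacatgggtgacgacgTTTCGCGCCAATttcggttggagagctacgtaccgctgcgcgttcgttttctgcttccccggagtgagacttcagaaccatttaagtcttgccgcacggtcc
Cdc20: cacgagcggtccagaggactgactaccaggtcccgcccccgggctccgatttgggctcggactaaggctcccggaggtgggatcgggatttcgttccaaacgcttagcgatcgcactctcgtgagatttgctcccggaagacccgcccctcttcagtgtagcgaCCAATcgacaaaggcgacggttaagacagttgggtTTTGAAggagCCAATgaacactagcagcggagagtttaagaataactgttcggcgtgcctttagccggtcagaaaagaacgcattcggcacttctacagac
Smc4: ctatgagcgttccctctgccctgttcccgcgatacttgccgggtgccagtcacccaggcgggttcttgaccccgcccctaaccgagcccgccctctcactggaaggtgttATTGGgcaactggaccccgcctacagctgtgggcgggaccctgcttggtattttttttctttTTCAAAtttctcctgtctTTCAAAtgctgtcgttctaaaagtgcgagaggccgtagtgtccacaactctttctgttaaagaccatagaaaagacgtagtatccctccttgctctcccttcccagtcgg
Cdc25b: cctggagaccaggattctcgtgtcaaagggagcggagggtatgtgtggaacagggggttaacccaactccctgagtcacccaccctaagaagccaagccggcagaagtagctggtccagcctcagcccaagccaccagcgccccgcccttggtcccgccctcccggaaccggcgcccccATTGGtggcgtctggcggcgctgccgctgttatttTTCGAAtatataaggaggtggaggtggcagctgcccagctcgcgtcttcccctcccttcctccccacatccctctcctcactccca
An E2F match lay in 7 of the 29 member windows (24.1%) and in 2.14% of all 33469 windows of that length. Of the 6 windows of genes for the helicase and its loading, 5 held one (Mcm2, Mcm3, Mcm5, Mcm6 and Mcm7, not Gins2), as did those of Tyms and Cdk1, and none of the 16 windows of the checkpoint, spindle and chromosome structure genes did. The CCAAT box lay in 23 of 29 windows (79.3%, against 37.5% of all windows) and the CHR letters in 16 of 29 (55.2%, against 19.7%). Both were also found among the helicase genes, the CCAAT box in 5 of 6 windows and the CHR letters in 2 of 6, and no difference between roles was tested. All 4 chromosome structure genes, Top2a, Smc2, Smc4 and Mki67, held both. A match is a description of the letters only, and no match says only that these letters are not in the window.

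Several genes of mitosis, among them Mki67, Top2a, Ccnb1 and Cdk1, were higher in control colon than in control kidney cortex. Of 30 members tested across the tissues, 19 were higher and 2 lower in NC colon (70%) by the edgeR quasi-likelihood test with Benjamini-Hochberg adjustment, where 58.8% of all 9128 tested genes were called, 30.4% higher and 28.4% lower. The median log2 difference (colon minus cortex) was 1.70 over these members and 0.06 over all tested genes. Of the 30, 18 failed the filter on low counts within the cortex and could enter only through their colon counts, so their number is a description. With the NC libraries fitted alone, the filter left 9 members, of which 3 were higher and 2 lower, so that 5 were called in place of 21. Among the 12 members that also passed within the cortex, 3 were higher in the colon (Pcna, Gins2 and Smc4) and 2 lower (Kif11 and Cdc25b). In bulk tissue, fewer dividing cells and less RNA per cell cannot be told apart. Levels in this comparison are CPM scaled over both tissues.

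**Figure D1:**
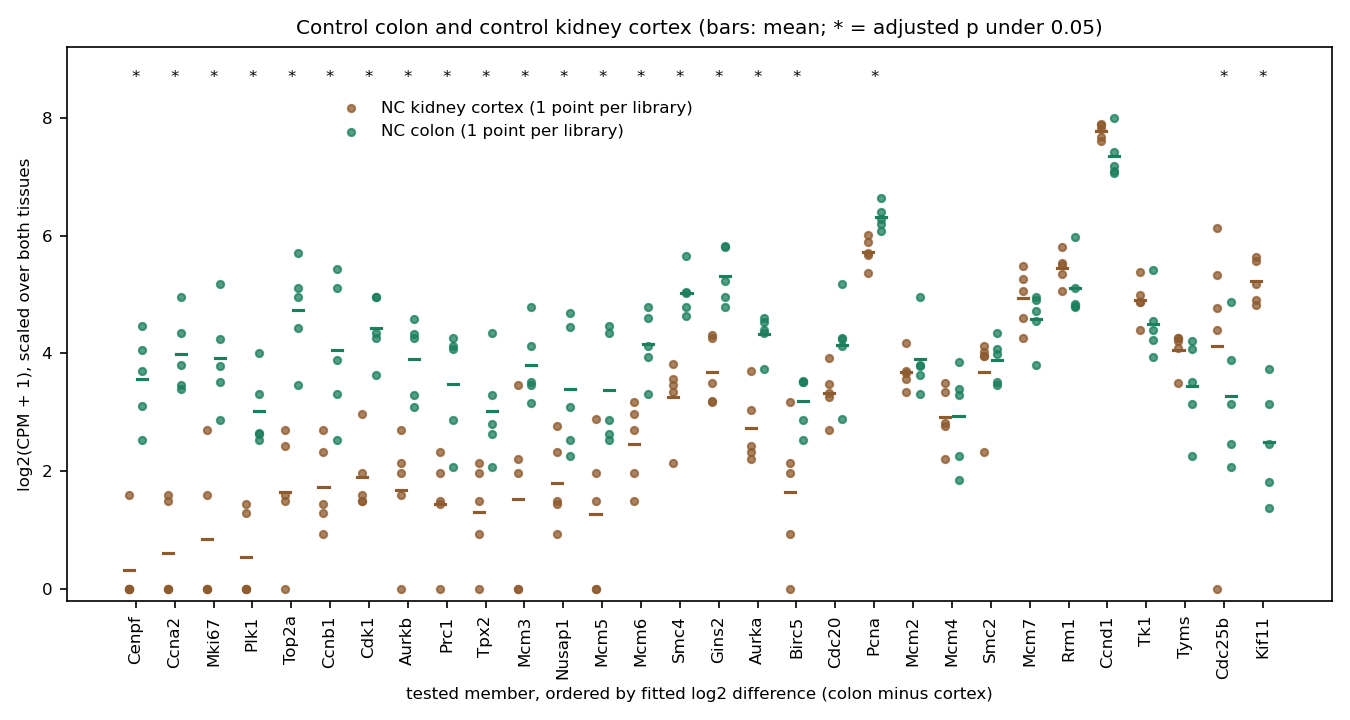
Levels of the 30 tested members in control kidney cortex (brown) and control colon (green), as log2(CPM + 1) scaled over both tissues (vertical axis), for each gene (horizontal axis, ordered by fitted difference). Each point is a library, each bar the mean of 5, and an asterisk marks an adjusted p under 0.05; the mitotic genes at the left are higher in the colon, and Cdc25b and Kif11 at the right are lower.

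Among the chromosome structure genes, 3 of 4 tested were higher in the colon (30.4% of all tested genes were). Of these, Mki67 and Top2a failed the low-count filter within the cortex and entered through their colon counts, so this number is a description. Mki67, which coats mitotic chromosomes and is the usual marker of cycling cells, was at 0, 0, 5.47, 2.01 and 0 CPM in cortex libraries 1 to 5 and at 35.3, 18, 10.4, 6.31 and 12.7 CPM in colon libraries 1 to 5. Top2a, which untangles DNA, was at 4.38, 1.82, 5.47, 2.01 and 0 CPM in the cortex and at 51.2, 29.9, 33.7, 10.1 and 20.7 CPM in the colon. Every colon library lay above every cortex library for both genes. The log2 differences were 3.55 (SE 0.74, adjusted p = 1.09e-04) for Mki67 and 3.33 (SE 0.57, adjusted p = 5.4e-06) for Top2a. Smc4, a condensin ATPase, was at 13.1, 10.9, 9.11, 10.1 and 3.41 CPM in the cortex and at 26.5, 31.4, 49.3, 24.0 and 31.8 CPM in the colon (1.72, SE 0.36, adjusted p = 1.2e-04). Its groups did not overlap either. Its partner Smc2 was at 13 ± 5.07 CPM in the cortex and 14.2 ± 3.95 CPM in the colon (SD, n = 5 each), a log2 difference of 0.10 with an adjusted p of 0.852.

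Among the cyclins, their kinase and phosphatase, 3 of 5 tested genes were higher in the colon and 1 was lower. Of all tested genes, 30.4% were higher and 28.4% lower. The 3 higher genes failed the low-count filter within the cortex and entered through their colon counts, so their number is a description. Cyclin A2 (Ccna2) was at 0, 1.82, 0, 2.01 and 0 CPM in the cortex and at 30.0, 19.5, 13, 10.1 and 9.55 CPM in the colon. Its 3 cortex reads against 49 colon reads give a ratio of 18.4 (95% counting interval 5.93 to 92.1; adjusted p = 2.08e-05). Cyclin B1 (Ccnb1), the partner of Cdk1 in mitosis, was at 1.46, 0.908, 5.47, 4.02 and 1.71 CPM against 42.4, 8.98, 33.7, 13.9 and 4.78 CPM. The groups of Ccnb1 overlapped, and those of Ccna2 did not. Cdk1 was at 2.92, 1.82, 1.82, 2.01 and 6.83 CPM against 30.0, 19.5, 18.2, 11.4 and 30.2 CPM, with no overlap. The log2 differences were 2.94 (SE 0.66, adjusted p = 2.34e-04) for Ccnb1 and 2.79 (SE 0.62, adjusted p = 2.11e-04) for Cdk1. Cdc25b, a phosphatase that activates Cdk1, was the other way: 68.6, 26.3, 20.0, 0 and 39.2 CPM in the cortex and 28.3, 4.49, 7.78, 13.9 and 3.18 CPM in the colon. The groups overlapped widely, and its difference of -1.43 (SE 0.58, adjusted p = 0.0329) was lost with voom (0.179) and without cortex replicate 1 (-0.93, adjusted p = 0.187) or 5, or colon replicate 2, 3 or 5. Cyclin D1 (Ccnd1), which couples growth signals to the start of the cycle, was at 218 ± 19.6 CPM in the cortex and 167 ± 50.3 CPM in the colon (adjusted p = 0.221).

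Among the checkpoint genes and mitotic kinases, 4 of 5 tested were higher in the colon (30.4% of all tested genes were). All 5 failed the low-count filter within the cortex and entered through their colon counts, so this number is a description. Plk1, a kinase of spindle assembly, was at 1.46, 0, 0, 0 and 1.71 CPM in the cortex and at 5.30, 8.98, 5.19, 15.1 and 4.78 CPM in the colon. Its 2 cortex reads against 26 colon reads give a ratio of 14.6 (95% counting interval 3.66 to 127; adjusted p = 3.51e-04). No cortex library reached the lowest colon library. Aurkb, the kinase that corrects wrong attachments of chromosomes, was at 2.92, 0, 5.47, 2.01 and 3.41 CPM against 23.0, 7.48, 18.2, 8.83 and 19.1 CPM (2.51, SE 0.65, adjusted p = 0.00118). Aurka, a centrosome kinase, was at 4.38, 7.26, 3.65, 4.02 and 11.9 CPM against 12.4, 19.5, 23.3, 20.2 and 22.3 CPM (1.58, SE 0.54, adjusted p = 0.0125). Neither kinase had overlapping groups. Birc5 (survivin, a partner of Aurkb) was at 2.92, 0.908, 0, 8.04 and 3.41 CPM against 10.6, 10.5, 10.4, 6.31 and 4.78 CPM. Its groups overlapped, and its difference of 1.53 (adjusted p = 0.0362) was lost with no filter (0.0562) and without 6 of the 10 NC libraries taken singly. Cdc20, the activator of the anaphase ligase, differed by 0.97 with an adjusted p of 0.0789.

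Among the kinetochore and spindle genes, 4 of 5 tested were higher in the colon and 1 was lower. Of all tested genes, 30.4% were higher and 28.4% lower. Only Kif11 also passed the low-count filter within the cortex, and the 4 others entered through their colon counts, so their number is a description. Cenpf was at 0, 0, 0, 2.01 and 0 CPM in the cortex and at 21.2, 12, 15.6, 7.57 and 4.78 CPM in the colon. Its single cortex read against 35 colon reads gives a ratio of 39.4 (95% counting interval 6.61 to 1598; adjusted p = 4.88e-05). The interval is wide because of that read. Prc1, which bundles the central spindle, was at 2.92, 1.82, 0, 4.02 and 1.71 CPM against 15.9, 16.5, 18.2, 6.31 and 3.18 CPM (2.38, adjusted p = 0.00214). Tpx2, an activator of Aurka, was at 2.92, 0.908, 1.82, 0 and 3.41 CPM against 19.4, 5.99, 5.19, 8.83 and 3.18 CPM (2.15, adjusted p = 0.0162). Both had overlapping groups. Nusap1 was at 5.84, 0.908, 1.82, 4.02 and 1.71 CPM against 24.7, 7.48, 20.7, 3.79 and 4.78 CPM (2.02, adjusted p = 0.0114), and without colon replicate 1 neither Nusap1 (0.0694) nor Tpx2 (0.0868) passed. Kif11, the kinesin that pushes the spindle poles apart, was at 35.0, 49.0, 27.3, 46.3 and 29.0 CPM in the cortex and only 12.4, 4.49, 7.78, 2.52 and 1.59 CPM in the colon. Every colon library lay below every cortex library (-2.77, SE 0.42, adjusted p = 7.8e-07). In RefSeq, the gene span of Kif11 overlaps that of Ide, an insulin-degrading protease. Overlap of their exons was not checked, and reads of any shared exon bases cannot be told apart without strand. Ide itself was at 64.3 ± 8.71 CPM in the cortex and 35.1 ± 12.5 CPM in the colon (-0.92, adjusted p = 0.00168).

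Among the genes of the helicase and its loading, 4 of 7 tested were higher in the colon (30.4% of all tested genes were). Of these, Mcm3, Mcm5 and Mcm6 failed the low-count filter within the cortex and entered through their colon counts, so this number is a description. Mcm6 was at 2.92, 1.82, 5.47, 8.04 and 6.83 CPM in the cortex and at 26.5, 8.98, 23.3, 16.4 and 14.3 CPM in the colon (1.89, SE 0.63, adjusted p = 0.0103), with no overlap. Mcm3 was at 2.92, 3.63, 0, 10.1 and 0 CPM against 26.5, 16.5, 10.4, 10.1 and 7.96 CPM (2.08, adjusted p = 0.0125). Mcm5 was at 2.92, 6.35, 1.82, 0 and 0 CPM against 21.2, 19.5, 5.19, 6.31 and 4.78 CPM (2.0, adjusted p = 0.0223). Mcm3 and Mcm5 had overlapping groups, and Mcm5 was lost without cortex replicate 5 or colon replicate 1 or 2 (0.0549 to 0.0753). Gins2, a subunit of the complex that activates the helicase, was at 19.0, 8.17, 18.2, 8.04 and 10.2 CPM against 54.8, 29.9, 36.3, 26.5 and 55.7 CPM (1.67, SE 0.34, adjusted p = 6.34e-05). Its gene span overlaps in RefSeq that of Gse1, which was also higher in the colon (1.81, adjusted p = 2.1e-05). Mcm2 (0.31), Mcm4 (0.22) and Mcm7 (-0.30) did not pass, with adjusted p from 0.433 to 0.73. Of the nucleotide supply and clamp genes, Pcna was the 1 of 4 called: it was at 51.1, 49.9, 58.3, 40.2 and 63.1 CPM in the cortex and 83.1, 76.3, 98.5, 71.9 and 66.9 CPM in the colon. Its groups did not overlap, with a log2 difference of 0.58 (SE 0.22, adjusted p = 0.0259) that was lost with no filter (0.0587) and without cortex replicate 2 or 4 or colon replicate 3 (0.0526 to 0.0564). Rrm1 (-0.34), Tyms (-0.55) and Tk1 (-0.41) did not pass. Over all 30 tested members, 12 had no overlap between the groups with the colon higher and 1 with the colon lower, where the groups of 24% and 23.9% of all tested genes did so.

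In the kidney cortex, 2 of the 12 members tested passed the threshold between HS and NC. This number is a description, and the call of Cdc25b did not hold in every setting. Smc4 rose and Cdc25b fell (16.7% of members tested, where 11% of all 7524 tested genes were called, 7.35% higher and 3.69% lower). The 12 members were Mcm2, Mcm7, Gins2, Pcna, Rrm1, Tyms, Tk1, Ccnd1, Cdc25b, Kif11, Smc2 and Smc4. Their median log2 fold change was 0.08, against -0.01 for all tested genes, with 7 above 0 and 5 below. At an unadjusted p under 0.05 there were 3 higher and 2 lower (41.7%, against 27.3% of all tested genes). Erythroid markers moved with the group in this tissue: all 4 (Hba-a1, Hba-a2, Hbb and Alas2) fell under high salt, and they summed to 3850 to 20137 CPM in NC, 973 to 1831 CPM in HS and 3494 to 6883 CPM in CAL. Their part in the member results was not tested.

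**Figure D2:**
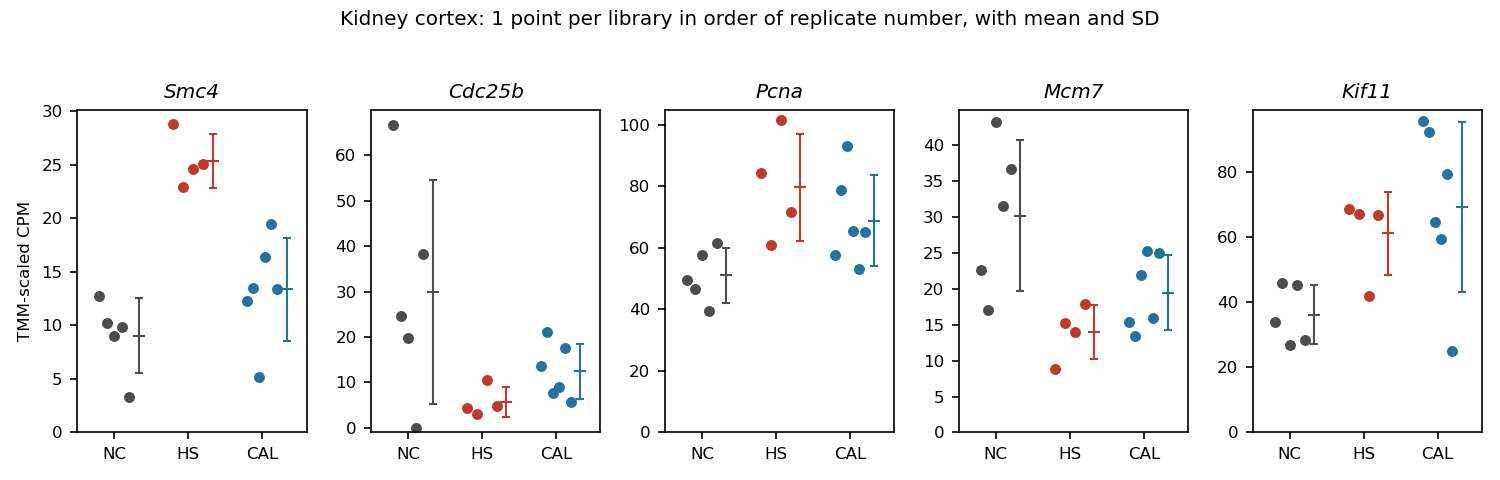
TMM-scaled CPM (vertical axes, each gene on its own scale) of Smc4, Cdc25b, Pcna, Mcm7 and Kif11 in the kidney cortex by group (horizontal axes), 1 point per library in order of replicate number, with mean and SD. The HS libraries of Smc4 lie above all NC and CAL libraries, and the NC libraries of Cdc25b spread from 0 to 66.6 CPM.

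Smc4 was at 12.8, 10.2, 9.0, 9.86 and 3.34 CPM in NC, at 28.8, 22.9, 24.5 and 25.1 CPM in HS, and in CAL between 5.17 and 19.4 CPM with a median of 13.4. Every HS library lay above every NC library, as in 7.44% of all tested genes (5.64% had every HS library below), and above every CAL library. The log2 fold change of HS against NC was 1.43 (SE 0.35, edgeR adjusted p = 0.0122), and it passed in all 6 other settings and with each of the 15 libraries left out (adjusted p 0.00869 to 0.0429). CAL against HS gave -0.95 (SE 0.31, adjusted p = 0.141), which did not pass, and CAL against NC gave 0.48 (adjusted p = 0.583). Smc2, the other ATPase of condensin, was at 14.2, 13.6, 16.2, 3.94 and 15 CPM in NC and at 15.5, 16.8, 21.0 and 23.9 CPM in HS. Its change of 0.59 (SE 0.34, adjusted p = 0.261) did not pass.

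Cdc25b was at 66.6, 24.6, 19.8, 0 and 38.4 CPM in NC, at 4.43, 3.05, 10.5 and 4.77 CPM in HS, and in CAL between 5.75 and 21.1 CPM with a median of 11.3. The HS libraries lay below 4 of the 5 NC libraries and above the NC library at 0. The fold change of HS against NC was -2.58 (SE 0.65, edgeR adjusted p = 0.0144), and the call was lost with voom (-1.68, adjusted p = 0.230) and without HS replicate 2 (0.0621) or 4 (0.0500382). CAL against HS gave 1.29 (SE 0.71, adjusted p = 0.380). The summed erythroid markers stood in the same order as Cdc25b over the NC libraries: 20137 CPM in replicate 1, 13722 in replicate 5, 8155 in replicate 2, 4991 in replicate 3 and 3850 in replicate 4. Their part in the Cdc25b result was not tested.

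Other tested cortex members did not pass between HS and NC. Pcna was at 49.6, 46.7, 57.6, 39.4 and 61.7 CPM in NC and at 84.2, 61.0, 102 and 71.6 CPM in HS (0.60, SE 0.20, adjusted p = 0.0550). Mcm7 was at 22.7, 17, 43.2, 31.5 and 36.7 CPM in NC and at 8.87, 15.3, 14.0 and 17.9 CPM in HS (-0.98, SE 0.33, adjusted p = 0.0558). Kif11 was at 34.0, 45.9, 27.0, 45.3 and 28.4 CPM in NC and at 68.7, 67.1, 42.1 and 66.8 CPM in HS (0.77, SE 0.28, adjusted p = 0.0689). In each of these genes the groups overlapped through a single HS library. Each of the 3 passed in some other setting: Pcna with the compared groups alone (0.0458) or without NC replicate 5 (0.0499) or CAL replicate 6 (0.0490), Kif11 with no filter (0.0457), the compared groups alone (0.0254), the replicate number as a block (0.0273) or without CAL replicate 6 (0.0197), and Mcm7 without NC replicate 2 (0.0213). Ide, which overlaps Kif11, gave 0.08 (adjusted p = 0.844). The helicase gene Mcm2 gave 0.53 (adjusted p = 0.337), and Rrm1, Tk1, Ccnd1, Gins2 and Tyms lay between -0.11 and 0.14. Ccnd1 was at 215, 190, 232, 233 and 188 CPM in NC and at 211, 194, 266 and 164 CPM in HS, and between 75.2 and 359 CPM in CAL with a median of 225.

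With calcitriol added, no cortex member passed. Of the 12 members, 0 were called between CAL and HS (0.758% of all tested genes were) and 0 between CAL and NC (0% of all tested genes by edgeR). At an unadjusted p under 0.05, 1 member was lower in CAL than in HS (8.33%, against 16.2% of all tested genes, 7.22% of them higher), which was Smc4, and 2 were higher and 2 lower in CAL than in NC (33.3%, against 11.9% of all tested genes, 6.54% higher and 5.32% lower). Smc4 was the 1 member whose CAL and HS libraries did not overlap (4.17% of all tested genes, 1.87% with CAL higher and 2.3% with CAL lower), and no member's CAL and NC libraries stood apart (1.06% of all tested genes). DESeq2 and voom also called 0 members in both. Kif11 ran from 24.9 to 95.5 CPM in CAL with a median of 72.0, and CAL against NC gave 0.95 (SE 0.24, adjusted p = 0.114). That value passed with no filter (0.00901), with the replicate number as a block (1.13, adjusted p = 0.0121) and without CAL replicate 6 (1.10, adjusted p = 0.0139), the library at 24.9 CPM. The HS and CAL comparisons with NC share the NC libraries, and the comparisons with HS share the HS libraries.

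The 24 other members were too low in the cortex to test. They had 4 to 99 reads over the 15 cortex libraries. Mki67 was at 0, 0, 5.40, 1.97 and 0 CPM in NC, at most 4.77 CPM in HS and at most 7.06 CPM in CAL, and Top2a at most 5.40 CPM in any cortex library. Rrm2, the regulated subunit of ribonucleotide reductase, had 1 read in NC, 1 in HS and 8 in CAL, where its median was 1.63 CPM. Its means were 0.170, 0.298 and 1.38 CPM in the same order. Ccnb1 had 8, 5 and 5 reads in the 3 groups, Cdk1 10, 7 and 15, and Plk1 2, 2 and 7. Mcm6 reached 17.5 CPM in an HS library against a group median of 4.68 CPM. With no filter on low counts, edgeR fitted all 36 members in the cortex and called Smc4, Cdc25b and Kif11 between HS and NC, Kif11 between CAL and NC and no member between CAL and HS, so that none of these 24 passed.

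**Figure D3:**
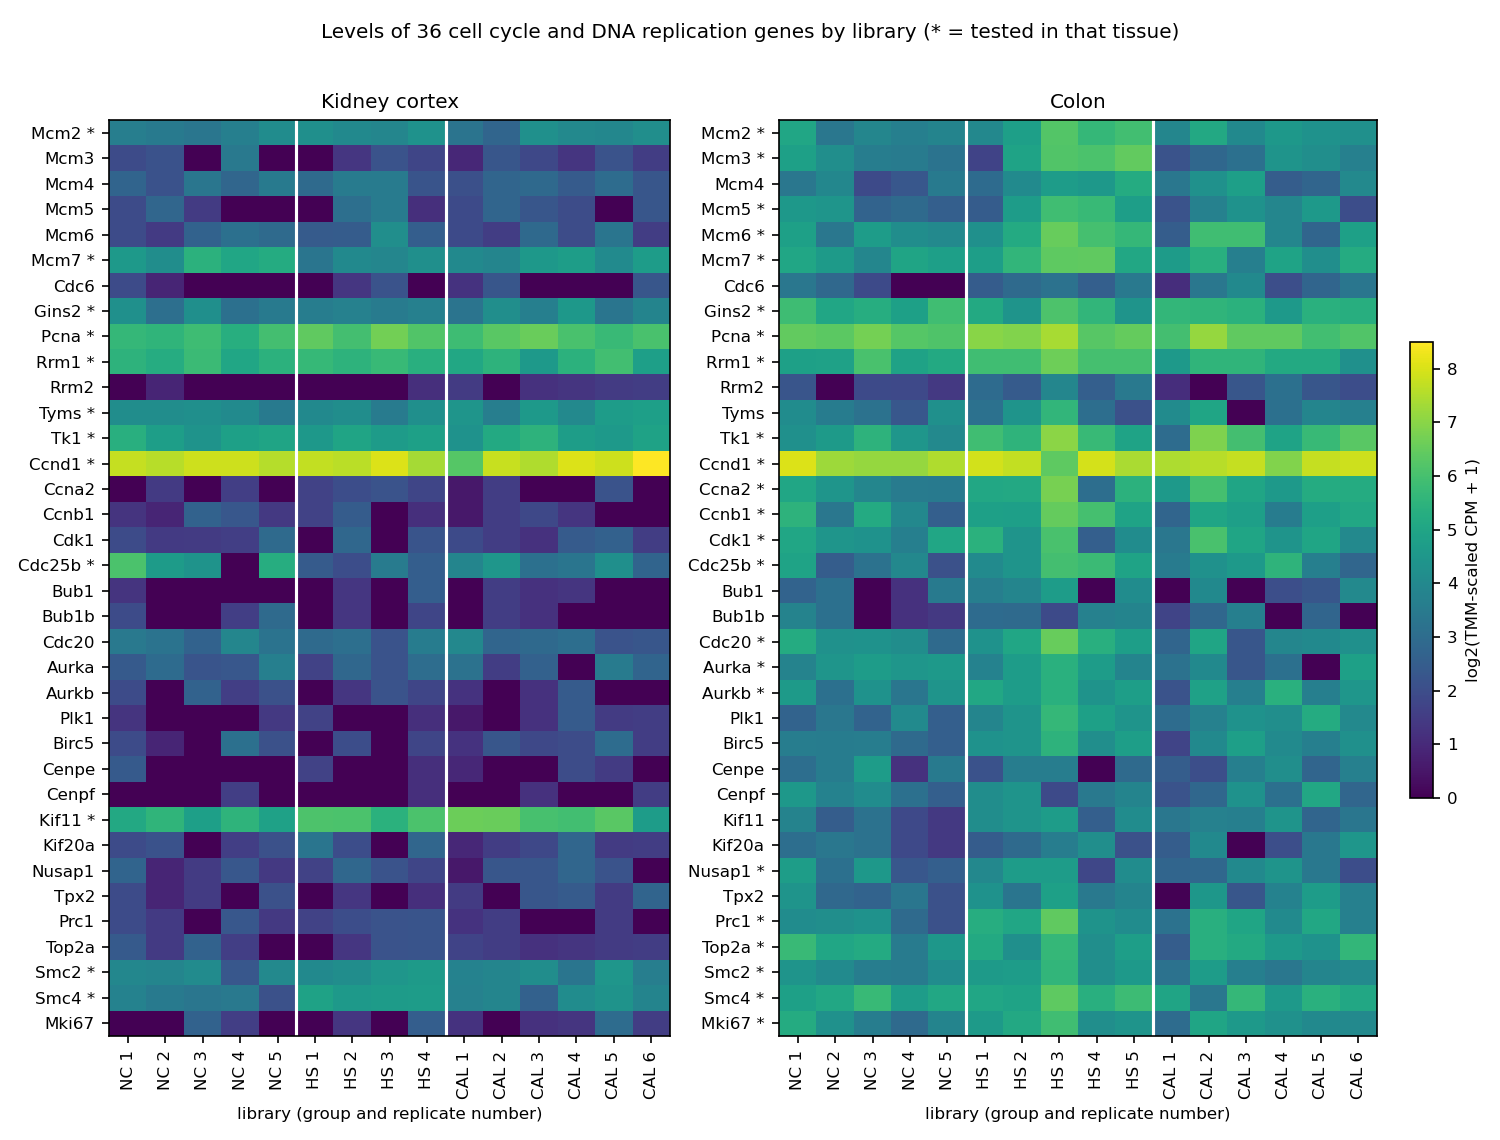
Level of each of the 36 members (rows) in each library (columns) of the kidney cortex and the colon, as log2(TMM-scaled CPM + 1) by the colour bar. An asterisk marks a gene tested in that tissue; most rows are dark in the cortex, and colon HS replicates 3, 4 and 5 are bright in the Mcm2 to Mcm7 rows.

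In the colon, the helicase genes were higher in most high-salt libraries than in the controls, but no member passed the test. Of 23 members tested, 0 were called between HS and NC by edgeR (0% of all 7217 tested genes were), and 0 by DESeq2, which called 15 genes in all. At an unadjusted p under 0.05, 13 members were higher and 0 lower (56.5%, against 8.51% of all tested genes, 5.36% higher and 3.15% lower). A member can pass the low-count filter mainly through HS: Mcm3 had medians of 67.0 CPM in HS, 11.0 in NC and 9.91 in CAL. Members were also high in the same HS libraries and are not independent, so their number is a description. No member had HS and NC libraries that did not overlap, against 1.4% of all tested genes (0.942% with HS lower). The fold change was above 0 for 21 of the 23 members, against 54.2% of all tested genes, with a median log2 of 0.89 against 0.04. The lowest adjusted p was 0.330, for Mcm2. Of the 23, 5 were Mcm genes, with log2 values from 1.07 (Mcm7, SE 0.37) to 1.70 (Mcm3, SE 0.60).

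Mcm2 was at 31.4, 9.43, 13.8, 11.8 and 13.4 CPM in NC, at 14.8, 26.9, 74.6, 49.7 and 59.6 CPM in HS, and in CAL between 14.0 and 34.2 CPM with a median of 18.7. Mcm3 was at 27.7, 17.3, 11.0, 10.5 and 8.35 CPM in NC, at 2.27, 29.2, 71.9, 67.0 and 86.1 CPM in HS, and in CAL between 3.50 and 20.3 CPM with a median of 9.91. HS replicates 3, 4 and 5 lay above every NC and CAL library in both genes, while HS replicate 1 was within or below the NC range. Mcm6 was at 27.7, 9.43, 24.8, 17.1 and 15 CPM in NC, at 18.2, 35.9, 91.2, 62.1 and 49.7 CPM in HS, and in CAL between 4.67 and 59.1 CPM with a median of 20.7. Mcm7 was at 31.4, 23.6, 13.8, 30.3 and 26.7 CPM in NC and at 26.1, 47.1, 82.9, 84.4 and 33.1 CPM in HS. Their windows, with those of Mcm3, are among the promoter sequences shown above. Mcm5 was at 22.1, 20.4, 5.52, 6.58 and 5.01 CPM in NC and at 4.54, 24.7, 58.1, 52.1 and 26.5 CPM in HS. In all 5 genes the groups overlapped, and HS replicate 1 lay within or below the NC range. Gins2 did not share the pattern: it was at 42.7 ± 14.4 CPM in NC and 38.3 ± 20.6 CPM in HS (SD, n = 5 each; -0.15, SE 0.34).

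Among the nucleotide supply genes, Rrm1 was at 27.7, 28.3, 66.2, 29.0 and 35.1 CPM in NC and at 57.9, 58.4, 96.8, 62.1 and 62.9 CPM in HS. All HS libraries lay above 4 of the 5 NC libraries (0.89, SE 0.30, adjusted p = 0.439). Tk1 was at 18.4, 23.6, 44.1, 21.1 and 15 CPM in NC and at 59.0, 44.9, 130, 52.1 and 29.8 CPM in HS (1.41, SE 0.52, adjusted p = 0.467). Pcna was at 86.7, 80.1, 105, 75 and 70.1 CPM in NC and at 127, 117, 166, 77.0 and 89.4 CPM in HS (0.48, SE 0.25, adjusted p = 0.627). Rrm2 was not tested: it was at 3.69, 0, 2.76, 2.63 and 1.67 CPM in NC and at 6.81, 4.49, 13.8, 4.97 and 9.94 CPM in HS, near the limit of counting.

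Among the cyclins and their regulators, Ccna2 (1.35, SE 0.49), Ccnb1 (1.13, SE 0.53) and Cdc25b (1.53, SE 0.57) had the largest fold changes, with adjusted p from 0.456 to 0.576. Ccnb1 was at 44.3, 9.43, 35.9, 14.5 and 5.01 CPM in NC, at 27.2, 26.9, 88.5, 62.1 and 29.8 CPM in HS, and in CAL between 5.84 and 33.3 CPM with a median of 27.0. Cdc25b was at 29.5, 4.71, 8.27, 14.5 and 3.34 CPM in NC, at 15.9, 20.2, 60.8, 54.6 and 29.8 CPM in HS, and in CAL between 6.05 and 45.4 CPM with a median of 15.1. HS replicates 3 and 4 were the highest libraries for both. Cdk1 was at 31.4, 20.4, 19.3, 11.8 and 31.7 CPM in NC and at 42.0, 20.2, 66.3, 4.97 and 16.6 CPM in HS (0.42, SE 0.52). Ccnd1 was at 264, 151, 141, 141 and 179 CPM in NC and at 239, 209, 82.9, 248 and 172 CPM in HS (0.13, SE 0.27). HS replicate 3, the highest library for Ccnb1, was the lowest of all colon libraries for Ccnd1.

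The mitotic genes were mixed. Mki67 was at 36.9, 18.9, 11.0, 6.58 and 13.4 CPM in NC, at 23.8, 33.7, 58.1, 17.4 and 19.9 CPM in HS, and in CAL between 7.01 and 31.1 CPM with a median of 17.1 (HS against NC 0.80, SE 0.46, adjusted p = 0.653). Top2a was at 53.5, 31.4, 35.9, 10.5 and 21.7 CPM in NC, at 35.2, 18, 49.8, 17.4 and 26.5 CPM in HS, and in CAL between 4.67 and 48.4 CPM with a median of 29.1 (-0.03, SE 0.49). For Top2a the HS libraries lay wholly within the NC range. Smc4, which rose in the cortex, was at 27.7, 33, 52.4, 25.0 and 33.4 CPM in NC and at 31.8, 29.2, 82.9, 39.7 and 56.3 CPM in HS (0.48, SE 0.36, adjusted p = 0.758). Prc1 was at 16.6, 17.3, 19.3, 6.58 and 3.34 CPM in NC and at 38.6, 31.4, 85.7, 19.9 and 16.6 CPM in HS (1.64, SE 0.52, adjusted p = 0.436). Cdc20 was at 36.9, 18.9, 19.3, 17.1 and 6.68 CPM in NC and at 19.3, 31.4, 91.2, 39.7 and 26.5 CPM in HS (1.04, SE 0.49). HS replicate 3 was the highest HS library in all 5 of these genes. Plk1 was not tested: it was at 5.53, 9.43, 5.52, 15.8 and 5.01 CPM in NC and at 13.6, 20.2, 49.8, 27.3 and 19.9 CPM in HS. Its gene span overlaps that of Ern2 in RefSeq, and reads of any shared exon bases cannot be told apart without strand.

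**Figure D4:**
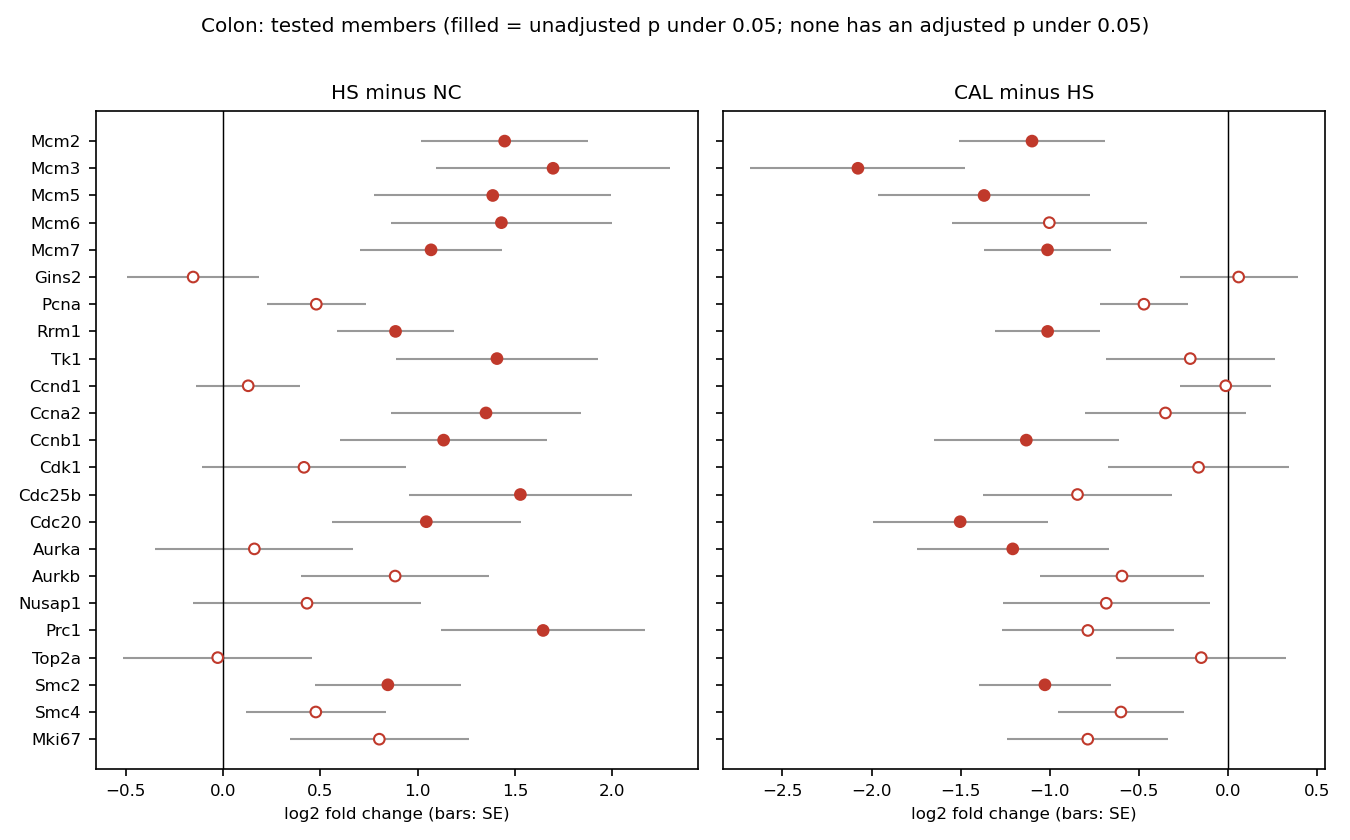
Fitted log2 fold changes (horizontal axes, bars: SE) of the 23 tested members (vertical axis) in the colon, for HS minus NC and for CAL minus HS. Filled points have an unadjusted p under 0.05 (13 higher at the left, 9 lower at the right) and none has an adjusted p under 0.05; both panels share the HS libraries.

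Colon CAL against HS gave lower values for most members, again with none past the threshold. Of 23 members, 0 were called by edgeR (0.0139% of all tested genes were) and 0 by DESeq2. At an unadjusted p under 0.05, 9 were lower and 0 higher (39.1%, against 10.5% of all tested genes, 3.98% higher and 6.53% lower). The limits given for HS against NC hold here too, so this number is a description. The fold change was above 0 for 1 of 23 members, against 47% of all tested genes, and the median log2 was -0.79, against -0.03 for all tested genes. Mcm3 gave -2.08 (SE 0.60), Rrm1 -1.01 (SE 0.29) and Cdc20 -1.50 (SE 0.49), each with an adjusted p of 0.345. Rrm1 ran from 18.2 to 46.7 CPM in CAL with a median of 34.6, so that every CAL library lay below every HS library. No other tested member had groups that did not overlap in that direction (0.263% of all tested genes had). Mcm3 passed without HS replicate 1 (-2.42, adjusted p = 0.0335). Because the HS libraries enter both comparisons, this and the comparison of HS with NC are not independent.

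Colon CAL against NC gave 0 calls of 23 (0% of all tested genes by edgeR, and 0 members by DESeq2). At an unadjusted p under 0.05, 2 members were higher and 0 lower (8.7%, against 3.85% of all tested genes). They were Tk1 (1.20, SE 0.51), which ran from 7.01 to 115 CPM in CAL with a median of 57.0, and Ccna2 (1.0, SE 0.48). The median log2 of the members was 0.02, against 0.00 for all tested genes, and the adjusted p was 1.0 for every member. The Mcm genes lay between -0.38 (Mcm3) and 0.43 (Mcm6).

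B cell markers varied between colon libraries in step with part of this pattern. Cd79a and Cd79b are the signalling chains of the B cell receptor, and Ms4a1 is the surface protein CD20. Cd79a was at 162, 9.43, 30.3, 17.1 and 6.68 CPM in NC and at 3.40, 0, 221, 487 and 103 CPM in HS, and between 1.93 and 100 CPM in CAL. Cd79b was at 225, 6.29, 52.4, 26.3 and 5.01 CPM in NC and at 0, 11.2, 285, 705 and 205 CPM in HS, and between 2.34 and 156 CPM in CAL. Ms4a1 was at 75.6, 3.14, 19.3, 6.58 and 0 CPM in NC and at 0, 0, 216, 176 and 126 CPM in HS, and between 0 and 151 CPM in CAL. HS replicates 3, 4 and 5 were high and HS replicates 1 and 2 at or near 0 in all 3 genes. The fold changes of HS against NC were 1.84 to 2.30 with SE of 1.05 to 1.21, and none passed (adjusted p 0.627 to 0.648). In the cortex the 3 markers summed to at most 4.53 CPM in any library.

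The sums of the helicase genes and of the 3 B cell markers are set side by side for each library. The levels of Mcm2 to Mcm7 summed to 404, 338 and 291 CPM in HS replicates 3, 4 and 5, where the B cell markers summed to 722, 1368 and 434 CPM. In NC replicate 1 and CAL replicates 3 and 4, whose B cell markers summed to 463, 332 and 330 CPM, the Mcm sum was 149, 139 and 105 CPM. HS replicate 5 and NC replicate 1 had similar B cell sums and Mcm sums of 291 and 149 CPM. HS replicate 2 had a B cell sum of 11.2 CPM and an Mcm sum of 180 CPM, and CAL replicate 2 had 15.6 and 171 CPM. In HS replicate 1 the sums were 3.40 and 72.6 CPM, and in the other libraries with a B cell sum under 110 CPM the Mcm sum was 59.6 to 112 CPM.

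**Figure D5:**
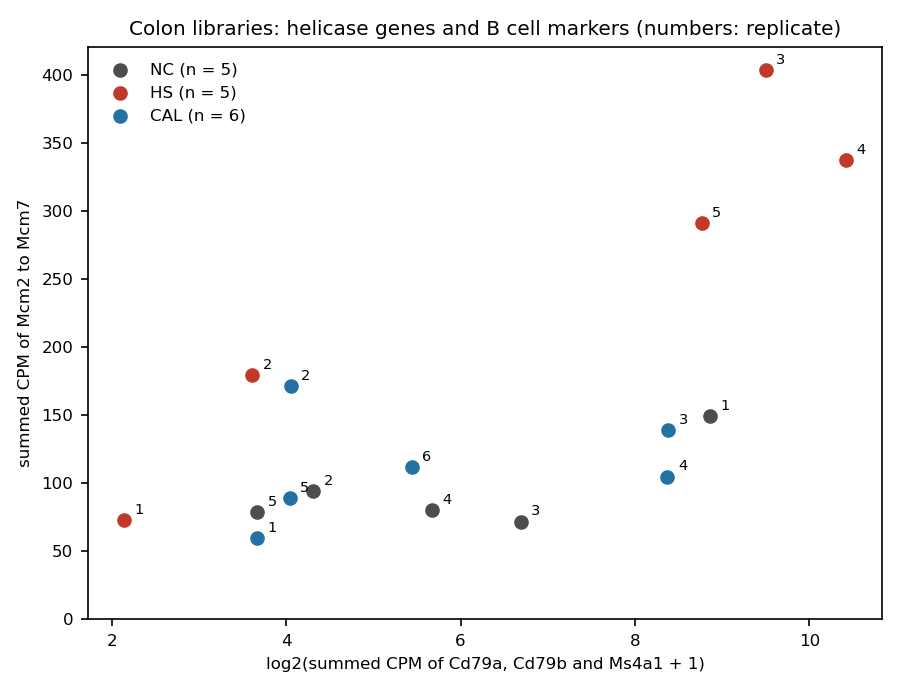
Summed TMM-scaled CPM of Mcm2 to Mcm7 (vertical axis) against log2(summed CPM of Cd79a, Cd79b and Ms4a1 + 1) (horizontal axis) in the 16 colon libraries, coloured by group and numbered by replicate. HS replicates 3, 4 and 5 sit at the upper right (291 to 404 CPM), and NC replicate 1 and CAL replicates 3 and 4 are high in B cell markers with Mcm sums of 105 to 149 CPM.

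With the log2 B cell sum (pseudocount 1) as a covariate in the edgeR fit, 0 of 23 members passed between HS and NC, and 11 in place of 13 were higher at an unadjusted p under 0.05, with a median log2 of 0.86 in place of 0.89. Without HS replicates 3 and 4 together, 0 of 29 tested members passed, 4 were higher at an unadjusted p under 0.05 and the median was 0.59. With HS replicate 3 alone left out, 8 of 28 were higher and the median was 0.73, and with the covariate as well 8 of 28 and 0.73. For CAL against HS, 6 members were lower at an unadjusted p under 0.05 with the covariate (median -0.68), 4 of 28 without HS replicate 3 (-0.48) and 2 of 29 without replicates 3 and 4 (-0.44), in place of 9 of 23 (-0.79). The low-count filter was rerun for each fit, so the 28 or 29 members are a different set from the 23. Their medians are not over the same genes as 0.89 and -0.79. The shares of all tested genes in these refits are not given here, so the numbers are a description. Other marker lists also varied between the colon libraries. The 7 germinal centre B cell markers summed to 241, 204 and 179 CPM in HS replicates 3, 4 and 5, to 131 and 158 CPM in CAL replicates 3 and 4, and to 15.6 to 95.9 CPM elsewhere in the colon. T cell markers summed to 1109, 484 and 315 CPM in HS replicates 3, 4 and 5 and to 398 CPM in NC replicate 1. The 7 crypt base markers, of the cells that renew the colon epithelium, summed to 81.6 to 122 CPM in NC, 116 to 236 CPM in HS and 50.1 to 134 CPM in CAL. Erythroid markers summed to 478 to 2619 CPM in NC, 74.6 to 394 CPM in HS and 235 to 2007 CPM in CAL. The covariate holds 3 B cell markers only. Whether B cell content or any of these 4 marker lists had a part in the member values was not tested.

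The tissues were compared by the difference between the colon effect and the cortex effect in a fit of all 31 libraries. For HS against NC, 0 of 30 members passed (0.0219% of all 9128 tested genes did), and 4 were higher in the colon and 0 lower at an unadjusted p under 0.05 (13.3%, against 13.4% of all tested genes). The largest difference was that of Cdc25b, 4.08 (SE 0.95, edgeR adjusted p = 0.0674), which fell in the cortex and had a colon value of 1.53. Mcm7, at -0.98 in the cortex and 1.07 in the colon, differed by 2.09 (SE 0.50, adjusted p = 0.0674). DESeq2 called both (adjusted p = 0.00945 for Cdc25b and 0.0258 for Mcm7), and edgeR with no filter called Cdc25b (0.0264). Smc4 differed by -0.93 (SE 0.51, adjusted p = 0.428). For CAL against HS, 0 of 30 passed by edgeR (0% of all tested genes) or DESeq2, and 0 were higher and 3 lower at an unadjusted p under 0.05 (10%, against 9.62%).

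A further 4 lists hold other genes of the same pathway. In the cortex under high salt, 0 of 6 other genes of mitosis changed in either direction, 2 of 12 genes of cell cycle control rose, and 3 of 9 genes of a list of cell cycle inhibitors rose, where 7.35% of all tested genes were called higher and 3.69% lower. Wee1, the kinase that restrains Cdk1, was at 15.6, 12.7, 7.20, 15.8 and 10 CPM in NC, at 42.1, 42.7, 49.1 and 40.6 CPM in HS, and in CAL between 13.4 and 27.1 CPM. It rose under high salt (1.79, SE 0.27, adjusted p = 4.48e-04) and was lower in CAL than in HS (-1.21, SE 0.24, adjusted p = 0.0199), the single call of the 4 lists in that comparison. Lin54, a DNA-binding subunit of the complex that represses cell cycle genes at rest, was at 8.51, 8.5, 5.40, 5.91 and 10 CPM in NC and at 31, 24.4, 10.5 and 21.5 CPM in HS (1.51, SE 0.39, adjusted p = 0.0164).

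The 3 called genes of the inhibitor list have different roles. Tob1, which restrains growth, rose by 1.15 (SE 0.22, adjusted p = 0.00245), from 31.5 to 83.4 CPM in NC to 127 to 186 CPM in HS, with no overlap. Ccng1, a target of p53, rose by 0.70 (SE 0.18, adjusted p = 0.0163), from 79.4 to 126 CPM in NC to 120 to 210 CPM in HS. Mdm2, which degrades p53 and so does not itself restrain the cycle, rose by 0.55 (SE 0.18, adjusted p = 0.0427) and was lost in 3 of 6 other settings and in 8 of 15 fits with a library left out. Btg1 (0.58, adjusted p = 0.0584) did not pass. The erythroid sums given above fell from NC to HS while Tob1, Ccng1 and Mdm2 rose, and the part of the erythroid markers was not tested. No gene of the 4 lists passed between CAL and NC in the cortex.

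In the colon no gene of the 4 lists passed in any comparison of HS, CAL and NC. For HS against NC the medians were 0.49 over 16 other replication genes, 0.33 over 12 mitosis genes, 0.21 over 12 control genes and -0.05 over 13 inhibitors, against 0.04 for all tested genes. Rpa1, of the complex that coats single-stranded DNA, gave 0.85 (SE 0.27, adjusted p = 0.410), and Ccnd2, cyclin D2, gave 0.73 (SE 0.21, adjusted p = 0.330). Cdkn1a, the inhibitor p21, gave -1.21 (SE 0.26, adjusted p = 0.211), and Cdkn2b, the inhibitor p15, gave -0.85 (SE 0.25, adjusted p = 0.330). For CAL against HS, Rpa1 gave -0.82, Ccnd2 -0.62, Myc -1.76 and Cdkn2b 0.59, with adjusted p from 0.325 to 0.401. The medians of the 4 lists were -0.17, -0.50, -0.22 and 0.24.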

How the data were processed

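The authors deposited whole-number read counts per gene symbol, not normalised, for 31 libraries. Per the submitters' processing notes, the tools were FastQC 0.11.9, Trimmomatic 0.39, HISAT2 2.1.0 and featureCounts 1.6.5, with the build Rnor_6.0. The annotation and strand setting are not given in the sources used here. The tagmentation kit named in the labels does not mark strand, so reads of exon bases shared by genes cannot be assigned by strand. By RefSeq gene spans, 8 of the 36 members overlap another protein-coding gene: Gins2, Rrm2, Aurka, Plk1, Kif11, Kif20a, Nusap1 and Smc2. These spans are on a build other than that of the counts, and overlap of exons was not checked.

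The main test was the quasi-likelihood test of edgeR 4.0.16 in R 4.3.3, run on the counts after its low-count filter (minimum count 10, minimum total 15) and TMM scaling, with no covariate. One fit per tissue held its 3 groups, and the comparisons between tissues used a fit of all 6 groups. Benjamini-Hochberg adjustment ran over all tested genes, with a threshold of 0.05. SE came from the quasi-likelihood F. As alternatives, DESeq2 1.42.0 was run, edgeR was rerun with DESeq2 size factors or with no filter, and further fits used voom with library weights (limma 3.58.1), the compared groups alone, the replicate number as a block, each library left out, colon HS replicates 3 and 4 left out, and a B cell covariate. That covariate without HS replicate 3, and a block shared by the tissues, were added after seeing the data. The tests were checked on simulated counts with known changes. For colon HS against NC, 20.8% of changes of log2 1 were called in the right direction. The share was 71.1% for cortex HS against NC and 41.7% for NC colon against NC cortex. For changes of log2 2 the shares were 84.9%, 99.0% and 90.8% in the same order. The members, the lists and the genes named were chosen with earlier results of these data known. Values by library are given for called members and for Mki67, Top2a, Mcm6, Pcna, Rrm2, Ccnb1, Cdk1, Plk1, Smc4, Cdc25b and Ccnd1, and up to 4 genes of a pathway list by smallest p. The cortex values of Smc2 and Mcm7 and the colon values of Mcm2, Mcm3, Mcm5, Mcm7, Rrm1, Tk1, Prc1 and Cdc20 were chosen after they were seen. A result of the DNA replication list is not reported here.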

Additional observations from a re-analysis of the deposited data

Results flagged for a closer look

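Within 105 groups of 4 to 6 libraries (12 members in the cortex and 23 in the colon, 3 groups each), 11 had a highest or lowest library whose gap to the next was a larger share of the group's range than Dixon's critical value. These limits would be passed by about 1 in 20 groups of independent, normally distributed values. Many of the values here rest on low counts, and the groups share libraries, so that rate cannot be set against the 11.

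In the cortex, Tyms was at 10.01 CPM in NC replicate 5 against 15.8 to 18 CPM in the other NC libraries. Smc2 was at 3.94 CPM in NC replicate 4 against 13.6 to 16.2 CPM. Kif11 was at 42.1 CPM in HS replicate 3, the shallowest cortex library, against 66.8 to 68.7 CPM.

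In the colon, HS replicate 3 was the highest of its group for Rrm1 (96.8 CPM against 57.9 to 62.9), Cdc20 (91.2 CPM against 19.3 to 39.7) and Smc2 (47.0 CPM against 17.4 to 24.7). The Mcm2 level of NC replicate 1, the control library with the most B cell marker RNA, was 31.4 CPM against 9.43 to 13.8 CPM. Rrm1 in NC replicate 3 was at 66.2 CPM against 27.7 to 35.1 CPM. In CAL replicate 2, Pcna was at 143 CPM against 60.0 to 84.9 CPM and Ccna2 at 62.2 CPM against 23.4 to 36.7 CPM. Gins2 was at 23.5 CPM in CAL replicate 4 against 39.3 to 47.9 CPM.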

How the results depend on the processing

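No called member changed direction in any setting run. In the cortex, HS against NC called 2 members, 1 with voom and library weights (Smc4) and 4 with the compared groups alone (Smc4, Cdc25b, Pcna and Kif11), and CAL against NC called 0, 1 with no filter and 1 with the replicate block (Kif11 in both). The NC colon and NC cortex libraries fitted alone called 5 members in place of 21, because the filter then left 9 members to test. The difference of the HS effects between tissues called 0 members, 2 by DESeq2 and 1 with no filter. The numbers of all tested genes called in these settings are not given here, so the member counts are a description. With each library left out in turn, the counts of called members ran from 1 to 4 for cortex HS against NC, 0 to 0 for cortex CAL against HS, 0 to 1 for cortex CAL against NC, 0 to 0 for colon HS against NC, 0 to 1 for colon CAL against HS, 0 to 0 for colon CAL against NC, 16 to 22 for the tissues, 0 to 2 for the difference of the HS effects and 0 to 0 for that of the CAL effects. Over the same fits, the number of all tested genes called ran from 324 to 961 for cortex HS against NC. It ran from 2 to 80 for cortex CAL against HS and from 0 to 40 for cortex CAL against NC. In the colon it ran from 0 to 1 for HS against NC and from 0 to 14 for CAL against HS. It was 0 throughout for colon CAL against NC and 5047 to 5466 for the tissues. For the differences of the HS and CAL effects it was 0 to 93 and 0 to 54. Where not named above, the cause of a change was not tested.

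Whether libraries with the same replicate number belong together cannot be told from these values. Deviations of same-numbered libraries correlated between -0.158 and 0.0675 over 13 cortex pairs (0 over 0.1), between -0.228 and 0.245 over 15 colon pairs (4 over 0.1), and between -0.0023 and 0.0799 over 5 pairs of NC cortex and colon. A library correlated best with its own number in 1 of the 13, 4 of the 15 and 3 of the 5 pairs. With the replicate block, cortex HS against NC called 3 members, the colon comparisons 0 each and, with the block shared by tissues, the tissue comparison 21. In the colon the block left 8 members higher in HS at an unadjusted p under 0.05 in place of 13. The share of all tested genes in that fit is not given here, so this number is a description.

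Read numbers per member limit both tissues: 24 of the 36 members did not pass the low-count filter in the cortex and 13 in the colon. Cortex libraries were not shallower, but the members held a smaller share of their counts (0.0413% to 0.0653%, against 0.0578% to 0.179%).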

Other observations

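Genes of the wider pathway were also compared between control colon and control cortex by the edgeR quasi-likelihood test. Of 14 other mitosis genes tested, 8 were higher in the colon and 1 lower, led by the kinesins Kif2c (3.79, SE 0.64, adjusted p = 4.32e-06), Kif23 (3.43, SE 0.62) and Kif22 (2.58, SE 0.54). These 3 failed the low-count filter within the cortex and entered through their colon counts, so the number is a description. Of the 6 mitosis genes that passed within the cortex, 2 were higher in the colon (Smc3 and Ube2s) and 1 lower (Cenpn). Of 20 other DNA replication genes, 5 were higher and 5 lower, in neither direction a larger share than that of all tested genes. Prim2, a primase subunit (-3.03, SE 0.52), and Rpa1 (-1.15, SE 0.21) were lower in the colon, and Slbp, which binds histone mRNA, was higher (1.39, SE 0.25), each with an adjusted p of at most 1.56e-05. The share of all tested genes called was 30.4% higher and 28.4% lower.

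Of 15 cell cycle inhibitors tested, 9 were higher in control colon and 1 lower, where 30.4% of all tested genes were higher and 28.4% lower. Some of the 15 entered through their colon counts, so this number is a description. Cdkn2b differed by 8.0 (SE 0.49, adjusted p = 2e-15), Cdkn1a by 4.87 (SE 0.35, adjusted p = 2.75e-14), Ccng2 by 3.14 (SE 0.24) and Btg1 by 2.74 (SE 0.22). Cdkn2b and Cdkn1a also failed the filter within the cortex. Of the 9 inhibitors that passed there, 4 were higher in the colon (Ccng2, Btg1, Btg2 and Tob1) and 1 lower (Cdkn1c). Of 14 control genes, 4 were higher and 0 lower, with Ccnd2 at 2.95 (SE 0.25, adjusted p = 1.46e-12) and Myc at 1.54 (SE 0.49, adjusted p = 0.00763). Within the cortex 12 control genes passed the filter, so this number is a description too. Whether Ccnd2 and Myc were among them is not given here.

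Smooth muscle markers, of the muscle layer under the epithelium, varied widely between colon libraries. The 6 markers summed to 2684 to 15871 CPM in NC, 1919 to 24680 CPM in HS and 3279 to 6367 CPM in CAL. HS replicate 2, the highest, had an Mcm2 to Mcm7 sum of 180 CPM, and HS replicate 1, the lowest, had 72.6 CPM.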
